A study of Mus musculus with 6 samples.

Results

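The genes described are those for potassium, sodium, calcium and TRP channels. They were chosen by name: each row of the counts table whose gene symbol begins with Kcn, with Scn and a digit, with Cacn, or with Trpc, Trpm or Trpv and a digit. The pattern finds 157 of 23420 rows: 94 potassium, 14 sodium, 26 calcium and 21 TRP channel genes, and 2 rows, Kcnq1ot1 and Trpc4ap, that encode no channel subunit. All 6 libraries were RNA from mouse embryonic fibroblasts of mixed 129/Sv-C57BL/6 strain that carry the adenoviral E1A oncogene and activated HrasG12V, plated and left at 5% oxygen for 24 h before harvest. The libraries form pairs by line: each of 3 lines gave a library with a non-targeting guide RNA (sgNTC, labelled p53 wild-type) and a library with guide 1 against p53 (sgp53). The sgp53 cells of lines 1 and 3 carry the label p53 null, and those of line 2 are labelled functionally inactive. A single p53 guide was used, and the labels do not say whether the cells were clones or pools. The comparison asks how RNA levels differ at this oxygen level between cells labelled p53 wild-type and cells labelled p53 null or functionally inactive.

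Ion channels are membrane proteins that let ions cross when a gate opens. In a potassium, sodium or calcium channel a large pore-forming alpha subunit holds the gate and the ion filter, and smaller auxiliary subunits change how much channel reaches the membrane and how fast it gates. TRP channels are cation channels of many triggers, among them lipids, heat, stretch and calcium. Most of these families are known from nerve, heart and muscle; fibroblasts are not excitable, and in such cells potassium channels mainly set the resting potential and cell volume, while TRP channels carry calcium and magnesium.

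Library totals lay between 27503577 and 35860866 counts, and 90 to 107 of the channel rows had a count in a given library. Trp53 fell from 245 to 85.3 CPM (log2 fold change -1.52, edgeR adjusted p = 0.0168; CPM, the usual depth-scaled count, uses the TMM-normalised library total). Values of 3 libraries are given in the order of lines 1, 2 and 3 throughout. Of 12 fibroblast markers, Vim (3120 and 2687 CPM in sgNTC and sgp53) and Fn1 (2937 and 4076 CPM) were abundant, while Lum was at 0.0351 CPM or less. Of 11 tested, 4 rose in sgp53, among them Col1a1 (8.90 to 459 CPM); the summed level was 5540 to 6615 CPM in sgNTC and 6977 to 9796 in sgp53. Smooth muscle markers moved the same way (3 of 4 rose; summed level 23.1 to 102 and 712 to 1093 CPM), and 1 of 4 tested epithelial markers, Krt18, fell (summed level 259 to 646 and 88.7 to 132 CPM). Of 9 neuronal markers, 5 were tested and 1 fell, Map2 (34.1 to 18.8 CPM); Nefl was at 26.04 and 12.9 CPM, Rbfox3 had no count in any library and Snap25 was at 0.0339 to 0.205 CPM. With the line as a block the calls of Krt18 and Map2 were lost (edgeR adjusted p = 0.0534 and 0.0728). The striated muscle markers Myh6, Myh7, Myog and Ckm were at 0.0901 CPM or less. The sgp53 library of line 3 stood apart in the ribosomal RNA precursor Rn45s, at 3336 CPM against 636 to 863 CPM in the other 5 libraries. It was the library of highest CPM for 16 of the 47 tested channel rows (34.0%, against 23.5% of all tested genes), and sgNTC line 1 for 15 (31.9%, against 14.8%). Results that rest on that library are given with and without it.

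Few of the channel genes had more than a trace of RNA. Of the 157 rows, 31 had no count in any library, 79 had counts too low to be tested (mean 0.00463 to 0.428 CPM), and 47 were tested. A mean of at least 1 CPM was reached by 38 rows, 36 of them channel subunits, and a mean of at least 10 CPM by 7 subunits. Rows with no count included the nociceptor sodium channels Scn10a and Scn11a, the neuronal and retinal calcium pores Cacna1e and Cacna1f, the lymphocyte potassium channel Kcna3 and the TRP channels Trpc4, Trpc6 and Trpv5. With 3 counts taken as the most that a count of 0 allows, these rows could have held up to 0.0834 to 0.109 CPM, depending on the library; that limit covers counting error only.

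The channel RNA of highest level was Trpm7, a channel fused to a kinase that conducts magnesium and calcium and is made by most cells. The sgNTC libraries had 168, 178 and 166 CPM of it and the sgp53 libraries 147, 155 and 168 CPM. It made up 40.2% of the summed mean CPM of all channel subunits, not scaled by length. Auxiliary subunits of voltage-gated calcium channels followed. Cacna2d1, the alpha2delta subunit that traffics calcium pores to the membrane, had 47.4 ± 5.95 CPM in sgNTC and 46.2 ± 6.03 in sgp53 (SD, n = 3 each, as for every mean ± SD here). Cacnb3, a cytoplasmic beta subunit, had 21.02 ± 2.68 and 22.8 ± 2.76 CPM. The order of genes by level was read only after division by exon length, as CPM per kilobase. On that scale Trpm7 led with 23.03 CPM per kilobase (range over the 6 libraries 20.6 to 24.98), followed by Cacng7, a gamma subunit also known as a partner of AMPA receptors (7.54, range 3.95 to 11.3), Cacnb3 (7.40, 6.13 to 8.68) and Cacna2d1 (5.58, 4.78 to 6.42). The ranges of these 3 calcium genes overlap, so their order is not resolved. The calcium pore subunits were much lower: Cacna1c was at 0.555 CPM per kilobase on average, Cacna1a at 0.328, Cacna1g at 0.210 and Cacna1b at 0.110.

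By mean over the 6 libraries, potassium channel RNA was led per kilobase by Kcnn4, Kcnk5 and Kcnab3, and then by Kcnh2 and Kcnq5. Kcnn4, a calcium-activated channel without voltage gating, had a mean of 3.60 CPM per kilobase but ranged from 0.266 to 16.6 between libraries. Its first place rests on sgp53 line 3, the library of the highest value. In every other library Kcnn4 was below the lowest value of Kcnk5. Kcnk5, a background potassium channel that responds to pH, was even, at 3.54 (2.80 to 4.25). Kcnh2, the hERG-type channel of cardiac repolarisation, was at 1.81, and Kcnq5, an M-current channel, at 1.24 CPM per kilobase. The voltage-gated Kv1 to Kv4 pore genes, which dominate in neurons, gave 2 of 17 members at 1 CPM or more, among them Kcnd1. Inward rectifiers gave 1 of 15, Kcnj4. Among the sodium pore genes at 1 CPM or more, Scn2a1 was at 0.375 CPM per kilobase, Scn9a at 0.251 and Scn7a at 0.237.

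**Figure D1:**
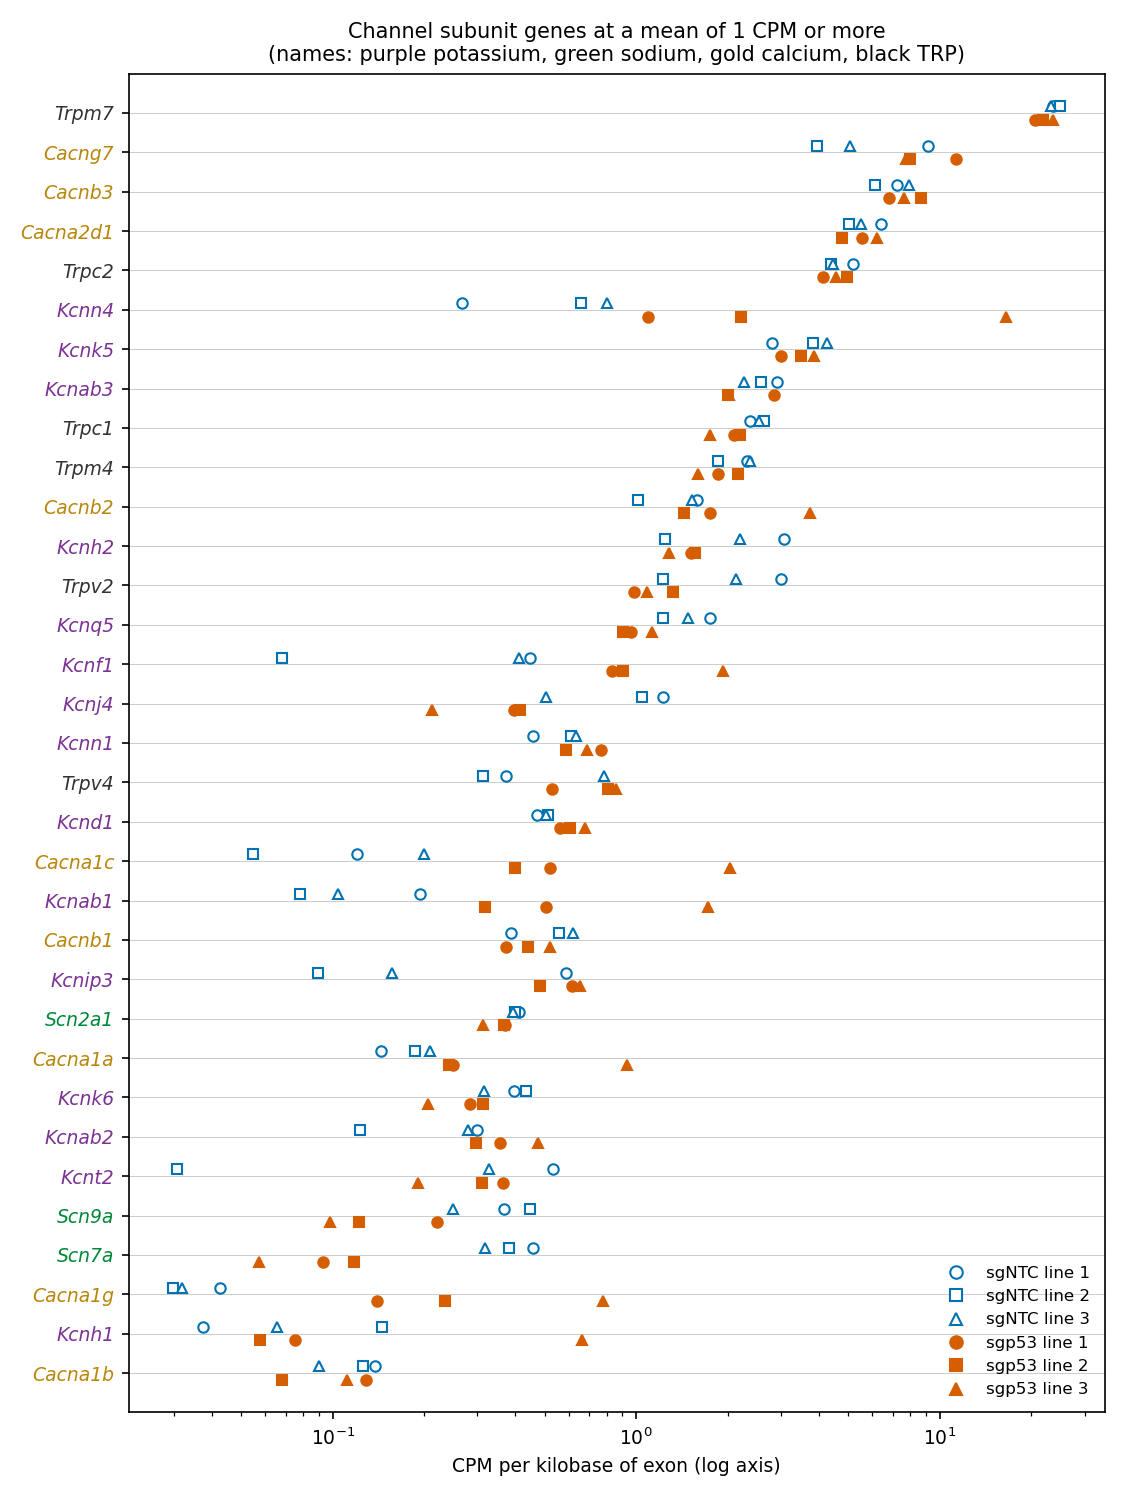
Level of 33 channel subunit genes with a mean of at least 1 CPM, as CPM per kilobase of exon on a log axis; each point is 1 library, open for sgNTC and filled for sgp53, with the marker shape giving the line. Trpm7 sits at 20.6 to 24.98 in all 6 libraries, whereas the points of Kcnn4, Cacna1c, Kcnab1 and Cacna1g spread widely, with the sgp53 library of line 3 farthest to the right.

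Between sgp53 and sgNTC, 4 of the 47 tested channel rows passed the test: 3 sodium channel genes fell, among them Scn3b and Scn7a, and the calcium channel pore gene Cacna1g rose. All tests are edgeR's quasi-likelihood test with Benjamini-Hochberg adjustment over the 13044 genes tested, called at an adjusted p under 0.05. The share of channel rows called, 8.51%, is near that of all tested genes, 6.45% (2.76% called higher and 3.69% lower). The groups did not overlap in 19 of the 47 rows, against 36.8% of all tested genes: 8 were higher (17.8% of all genes) and 11 lower (19.0%). With the line as a replicate block, edgeR called 2 rows lower, among them Scn7a (1.42% of all genes), and Cacna1c higher (0.966%), 3 in all (2.38%). DESeq2 called 9 rows (18.1% of all genes), 5 higher (9.16%) and 4 lower (8.98%). With limma-voom 2 were called (5.35% of all genes), both lower (3.17%) and 0 higher (2.18%). The fitted change was over 2-fold higher in 9 channel rows (19.1%, against 4.42% of all genes) and over 2-fold lower in 6 (12.8%, against 3.14%). In all 9 of the higher rows the sgp53 library of line 3 had the highest CPM, as in 74.5% of all genes over 2-fold higher. Without that library 7 rows were over 2-fold higher and 7 lower. Since a gene could enter the test through the group where it was high, these counts describe the rows and support no further statement. The median log2 fold change of tested members was -1.27 for 7 sodium, 0.35 for 10 calcium, 0.27 for 22 potassium and -0.17 for 6 TRP genes, against -0.01 for all tested genes. Without sgp53 line 3 these medians were -1.09, 0.17, 0.00 and -0.14.

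**Figure D2:**
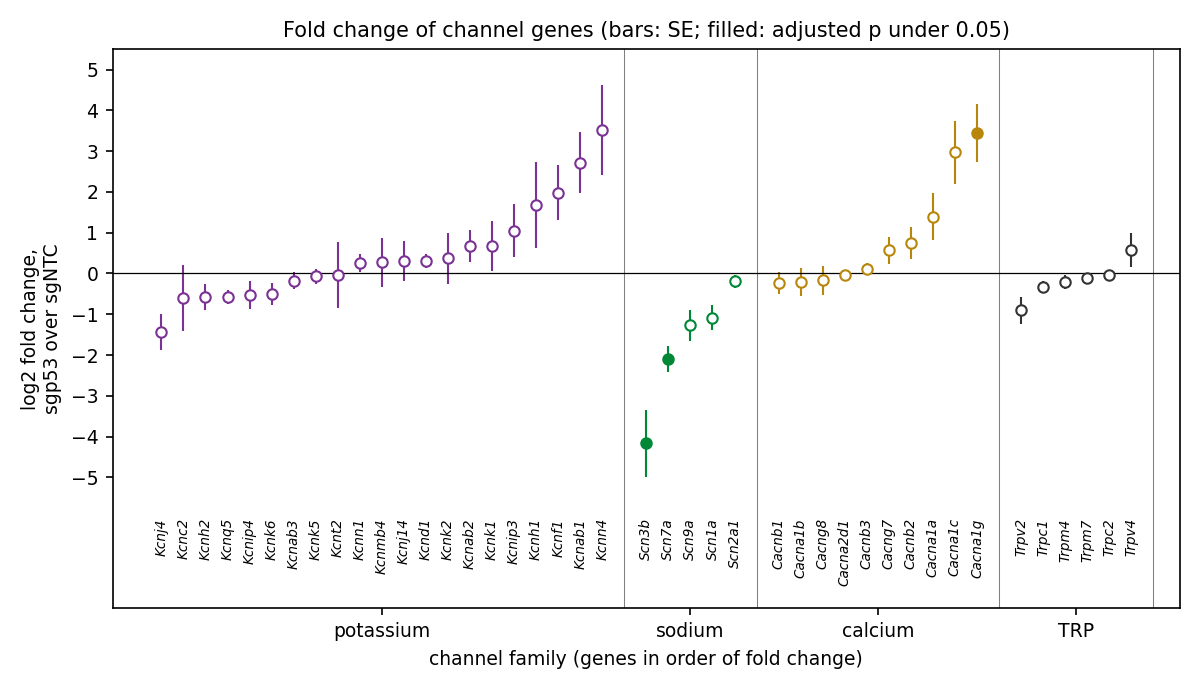
Fitted log2 fold change of sgp53 over sgNTC with its standard error for 42 tested channel subunit genes, grouped by family and ordered within it; filled points passed the test. The 5 sodium channel genes shown, of 7 tested, lie below 0. The calcium and potassium families each hold a tail of genes above 2 with wide error bars.

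Sodium channel genes were the family with the most calls, 3 of 7 tested. Of all tested genes, 3.69% were called lower. In 6 of the 7 every sgp53 library was below every sgNTC library (19.0% of all tested genes). In this family 0 were called higher (2.76% of all tested genes), and 1 had a fitted change above 0. The summed level of neuronal markers was also lower, at 51.8 to 81.7 CPM in sgNTC and 36.3 to 43.3 in sgp53 (Tubb3 went the other way, 2.48 and 4.30 CPM), and so was that of epithelial markers, at 259 to 646 and 88.7 to 132 CPM. Their part in the sodium channel values was not tested.

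Scn3b, the beta3 subunit, has been described as a p53-inducible gene (chromosome 9, 40269217 to 40291618, GRCm38 as for all positions). Beta subunits are small membrane proteins that change sodium channel gating and also mediate cell adhesion. The raw counts of Scn3b were 78, 42 and 12 with sgNTC and 3, 1 and 3 with sgp53, or 2.34, 1.52 and 0.406 CPM against 0.102, 0.0278 and 0.105 CPM. No sgp53 library had more than 3 counts, and sgNTC line 3 was much lower than the other sgNTC lines. The summed counts gave a ratio of sgNTC to sgp53 of 19.6 (95% exact interval 9.23 to 49.6, counting error only). The fitted log2 fold change was -4.16 (SE 0.82, edgeR adjusted p = 0.0392). The call was lost with the line as a block (adjusted p = 0.0749), with limma-voom (0.079) and without any 1 library other than sgNTC line 3 (0.0642 to 0.121) or any whole line (0.109 to 0.169). The beta genes Scn2b and Scn4b were too low to be tested.

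Scn7a encodes an atypical channel, Nax, which senses extracellular sodium and has lost voltage gating (chromosome 2, 66673425 to 66784914). It was at 3.37, 2.79 and 2.34 CPM in sgNTC and at 0.683, 0.861 and 0.421 CPM in sgp53, again without overlap. The log2 fold change was -2.10 (SE 0.33, edgeR adjusted p = 0.0229), and with the line as a block the adjusted p was 0.0487. The call was lost without sgNTC line 2 (0.0605), sgNTC line 3 (0.0744), sgp53 line 1 (0.0874) or any whole line (0.102 to 0.147).

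Further sodium pore genes gave no call in edgeR, with or without the block, while DESeq2 called Scn9a lower (adjusted p = 0.0359). Scn9a, the Nav1.7 channel of pain neurons, was at 3.67, 4.49 and 2.51 CPM in sgNTC and 2.22, 1.22 and 0.982 CPM in sgp53 (log2 fold change -1.27, SE 0.38, edgeR adjusted p = 0.0933). Scn1a, the Nav1.1 channel of inhibitory neurons, was at 0.721, 0.833 and 0.677 CPM and at 0.273, 0.417 and 0.351 CPM (log2 fold change -1.08, adjusted p = 0.082). Scn1a and the other members named outside the naming rule were chosen after their values were seen. In both genes the groups did not overlap. Scn2a1, the Nav1.2 channel, differed less, with 3.63 ± 0.0861 CPM in sgNTC and 3.17 ± 0.288 in sgp53. Summed over the 10 pore genes, sodium channel RNA was 11.2 to 15.9 CPM in sgNTC and 10.0 to 11.4 CPM in sgp53.

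**Figure D3:**
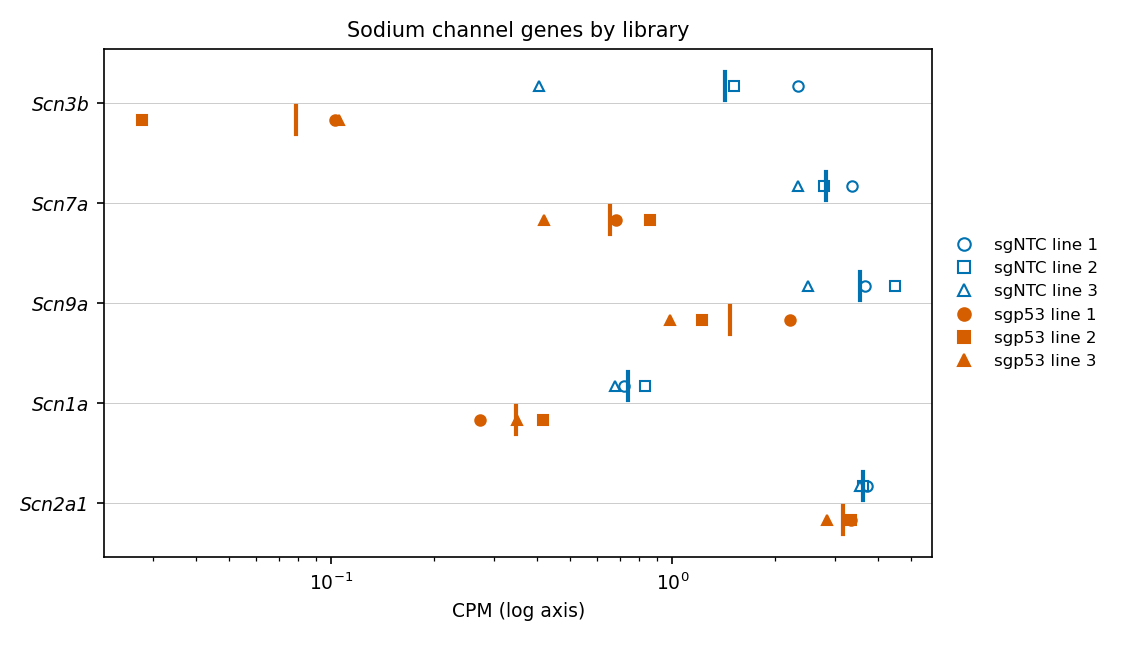
CPM of 5 tested sodium channel genes on a log axis; each point is 1 library (open sgNTC, filled sgp53, shape by line) and each vertical bar is a group mean. All 5 have every sgp53 point left of every sgNTC point, by the least distance in Scn2a1.

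Most of the lower sodium pore genes are neighbours on the chromosome. Scn3a, Scn2a1, Scn1a, Scn9a and Scn7a lie in that order within 1328 kb of chromosome 2 (65457118 to 66784914). Along this order the log2 fold changes of the 4 tested genes were -0.19 for Scn2a1, -1.08 for Scn1a, -1.27 for Scn9a and -2.10 for Scn7a; Scn3a was too low to be tested. The table held 10 other genes between these and within 1 Mb of either end, of which 6 were tested. Cobll1 was lower (log2 fold change -0.64, edgeR adjusted p = 0.0172, and 0.0659 with the line as a block), 0 were higher, and the 6 had a median of -0.34 (range -1.09 to -0.08). Exons of Scn9a overlap those of the antisense gene Gm13629 over 180 bases. That gene had 1 count in 1 library.

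Promoters of Scn1a, Scn9a and Scn7a are shown because these 3 had the largest differences of the chromosome 2 sodium genes, and a promoter of Cacna1c because it was one of 6 tested channel windows with a p53 decamer. Each is the 250 bases before a RefSeq start site, 5′ to 3′ on the gene's strand (all minus), at chr2:66440838-66441087, chr2:66634963-66635212, chr2:66784911-66785160 and chr6:119196410-119196659 of GRCm38.p6. Capitals mark matches, on either strand, to the p53 decamer (the 10-base unit of which a p53 response element holds a pair), an AP-1 site (TGANTCA), a GC box (GGGCGG) or a TATA box (TATAAA).
Scn1a: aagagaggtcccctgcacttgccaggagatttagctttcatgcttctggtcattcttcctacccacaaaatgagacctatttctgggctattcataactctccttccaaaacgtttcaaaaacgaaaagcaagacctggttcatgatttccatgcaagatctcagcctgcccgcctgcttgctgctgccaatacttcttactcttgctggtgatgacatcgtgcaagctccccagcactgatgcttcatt
Scn9a: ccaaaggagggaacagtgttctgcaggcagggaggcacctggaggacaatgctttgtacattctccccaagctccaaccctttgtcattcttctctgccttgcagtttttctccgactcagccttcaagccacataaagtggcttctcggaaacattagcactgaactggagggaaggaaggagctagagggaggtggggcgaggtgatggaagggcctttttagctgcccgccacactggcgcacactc
Scn7a: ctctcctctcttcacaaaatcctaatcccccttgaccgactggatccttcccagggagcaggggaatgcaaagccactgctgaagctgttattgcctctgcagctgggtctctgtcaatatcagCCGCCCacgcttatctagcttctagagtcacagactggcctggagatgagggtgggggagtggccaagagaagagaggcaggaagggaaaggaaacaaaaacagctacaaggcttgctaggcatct
Cacna1c: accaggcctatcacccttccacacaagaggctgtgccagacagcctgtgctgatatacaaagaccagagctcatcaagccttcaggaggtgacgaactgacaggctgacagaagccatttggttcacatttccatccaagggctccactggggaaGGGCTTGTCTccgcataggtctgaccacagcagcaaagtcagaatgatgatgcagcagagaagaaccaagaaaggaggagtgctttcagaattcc
The Scn1a and Scn9a windows hold none of the 4 motifs, the Scn7a window holds a GC box and the Cacna1c window a p53 decamer. Any other window of Cacna1c lacks the decamer and is not printed. Of 2 windows of Scn2a1, not printed, 1 holds a TATA box. Of all 32851 promoter windows of this length, 7.13% hold the p53 decamer, 6.75% the AP-1 site, 32.7% the GC box and 12.4% the TATA box. Of 160 windows of channel genes, tested or not, 6 hold the decamer (3.75%). All 6 are among the 59 windows of tested channel genes, in Cacna1c, Kcnab1, Kcnab2, Kcnip4, Kcnn1 and Trpm7. A match describes letters and no binding. Scn3b and Cacna1g have no window shown.

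Of 4 tested calcium channel pore genes 1 rose, Cacna1g, and in 2 more, Cacna1c and Cacna1a, every sgp53 library was above every sgNTC library (2.76% of all tested genes were called higher, and 17.8% were higher without overlap). Cacna1g encodes a T-type channel, Cav3.1, which opens at low voltage and is known from thalamus and pacemaker cells (chromosome 11, 94408391 to 94474198). It was at 0.361, 0.254 and 0.271 CPM in sgNTC and at 1.19, 2.00 and 6.63 CPM in sgp53. The groups did not overlap, and sgp53 line 3 was more than 3 times the next library. Cacna1g rose by 3.45 on the log2 scale (SE 0.72, adjusted p = 0.0453 in edgeR). Without sgp53 line 3 it was 2.42 (adjusted p = 0.0454). The call was lost with the line as a block (0.0846), with limma-voom (0.0984), without any 1 of the other 5 libraries (0.0596 to 0.151) and without any whole line (0.117 to 0.160).

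Cacna1c is the L-type pore Cav1.2 of heart and smooth muscle (chromosome 6, 118587240 to 119196418). It had the highest mean per kilobase among the calcium pores over all 6 libraries, but in sgNTC alone the mean of Cacna1a was higher. With sgNTC the values of Cacna1c were 1.83, 0.833 and 3.05 CPM, and with sgp53 7.92, 6.06 and 31.01 CPM. Within each line sgp53 was higher, by 2.07, 2.77 and 3.32 on the log2 scale, and line 3 was highest in either group. Without the block the log2 fold change was 2.97 (SE 0.78) and missed the threshold (edgeR adjusted p = 0.0701). With the line as a block it was 2.78 and passed (0.0319). Without sgp53 line 3 the unblocked value was 1.87 (0.123). Cacna1a, the P/Q-type pore of synapses, was at 1.14 to 1.66 CPM in sgNTC and at 1.98, 1.92 and 7.40 CPM in sgp53 (adjusted p = 0.174), so that without sgp53 line 3 the groups lay close together. Cacna1b, the N-type pore, overlapped, with 1.15 ± 0.245 and 1.01 ± 0.306 CPM. Summed over the 10 pore genes, calcium pore RNA was 5.498, 3.98 and 6.09 CPM in sgNTC and 12.8, 10.9 and 46.5 CPM in sgp53. The median log2 fold change of the 4 tested pores was 2.18, and 1.16 without sgp53 line 3.

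The auxiliary calcium subunits gave no call in edgeR, DESeq2 or limma-voom, which called 6.45%, 18.1% and 5.35% of all tested genes. The groups of all 6 tested members overlapped, while 36.8% of all tested genes did not overlap. Cacnb2, the beta subunit of cardiac channels, was at 6.62 ± 1.51 CPM in sgNTC and 11.1 ± 5.98 in sgp53, with 18.0 CPM in sgp53 line 3 (log2 fold change 0.74, and 0.22 without it). Cacng7 was at 20.3, 8.73 and 11.2 CPM in sgNTC and 25.05, 17.7 and 17.1 CPM in sgp53, so line 1 was highest in either group. Like the pore genes, summed smooth muscle markers were higher in sgp53 (102, 23.1 and 52.0 CPM in sgNTC, 1093, 712 and 1009 CPM in sgp53). So were fibroblast markers, at 5540 to 6615 CPM in sgNTC and 6977 to 9796 in sgp53. Within sgp53 the smooth muscle sum was highest in line 1, and the fibroblast and pore sums in line 3. The part of these markers and of the library sgp53 line 3 in the pore genes' values was not tested. In these bulk samples a change in the share of cells that make a channel and a change in RNA per cell cannot be told apart.

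Potassium channel genes, the largest family, had 0 calls among 22 tested by edgeR, with and without the block. At an unadjusted p under 0.05 there were 5 (29.0% of all tested genes pass that), DESeq2 called 3 and limma-voom 0. The 3 that DESeq2 called, all higher in sgp53 (DESeq2 calls 9.16% of all genes higher), were Kcnn4, Kcnf1 and Kcnab1. Kcnn4, the intermediate-conductance channel KCa3.1 of proliferating cells, was at 0.541, 1.34 and 1.62 CPM in sgNTC and 2.22, 4.50 and 33.6 CPM in sgp53. The groups did not overlap, but sgp53 line 3 was far above every other library. Its log2 fold change was 3.53 (SE 1.11, edgeR adjusted p = 0.100 and 0.0946 with the block), and 1.53 without sgp53 line 3. Kcnf1, a pore subunit that forms no channel alone and modifies Kv2 channels, was at 2.13, 0.326 and 1.96 CPM and at 3.99, 4.33 and 9.26 CPM (log2 fold change 1.98, SE 0.68, adjusted p = 0.120, and 1.49 without sgp53 line 3). Kcnab1, the beta subunit that speeds inactivation of Kv1 channels, was at 0.631, 0.254 and 0.339 CPM and at 1.64, 1.03 and 5.58 CPM (2.72, SE 0.74, adjusted p = 0.0766, and 1.68 without sgp53 line 3). Kcnh1, the EAG channel, showed that library alone: 4.81 CPM there against 0.270 to 1.05 CPM in the other 5. Among the rows too low to be tested the same library stood out for the inward rectifier Kcnj2, with raw counts of 1, 0 and 0 in sgNTC and 3, 2 and 44 in sgp53, and for the magnesium channel Trpm6, with 6, 2 and 4 and 8, 13 and 44. Kcnd1, a Kv4 pore that carries transient currents, was higher in every sgp53 library by a small margin (2.63 ± 0.118 and 3.25 ± 0.308 CPM, adjusted p = 0.302 in edgeR).

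Potassium channel genes with lower values in every sgp53 library were Kcnj4, Kcnq5 and Kcnk6 (3 of 22 tested, against 19.0% of all tested genes). Kcnj4, a strong inward rectifier (Kir2.3), was at 2.64, 2.25 and 1.08 CPM in sgNTC and 0.853, 0.889 and 0.456 CPM in sgp53. Its log2 fold change was -1.43 (SE 0.43, edgeR adjusted p = 0.0936). Kcnq5 was at 12.2, 8.55 and 10.3 CPM and at 6.72, 6.33 and 7.89 CPM (-0.57, SE 0.18, adjusted p = 0.0967). Of the more abundant members, Kcnk5 differed least, at 12.3 ± 2.54 and 11.7 ± 1.44 CPM. Kcnh2 was at 14.3, 5.80 and 10.2 CPM in sgNTC, which spans the sgp53 values of 7.06, 7.25 and 5.96 CPM. Kcnab3, another Kv beta subunit, was at 6.56 ± 0.803 and 5.81 ± 1.23 CPM. Kcnn1, a small-conductance calcium-activated channel, was at 2.60 ± 0.436 and 3.12 ± 0.411 CPM. The sodium-activated channel Kcnt2 varied within sgNTC from 0.181 to 3.12 CPM, which spans all sgp53 values, and Kcnip3, a calcium-binding Kv4 partner, from 0.290 to 1.89 CPM against 1.56 to 2.11 CPM in sgp53.

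**Figure D4:**
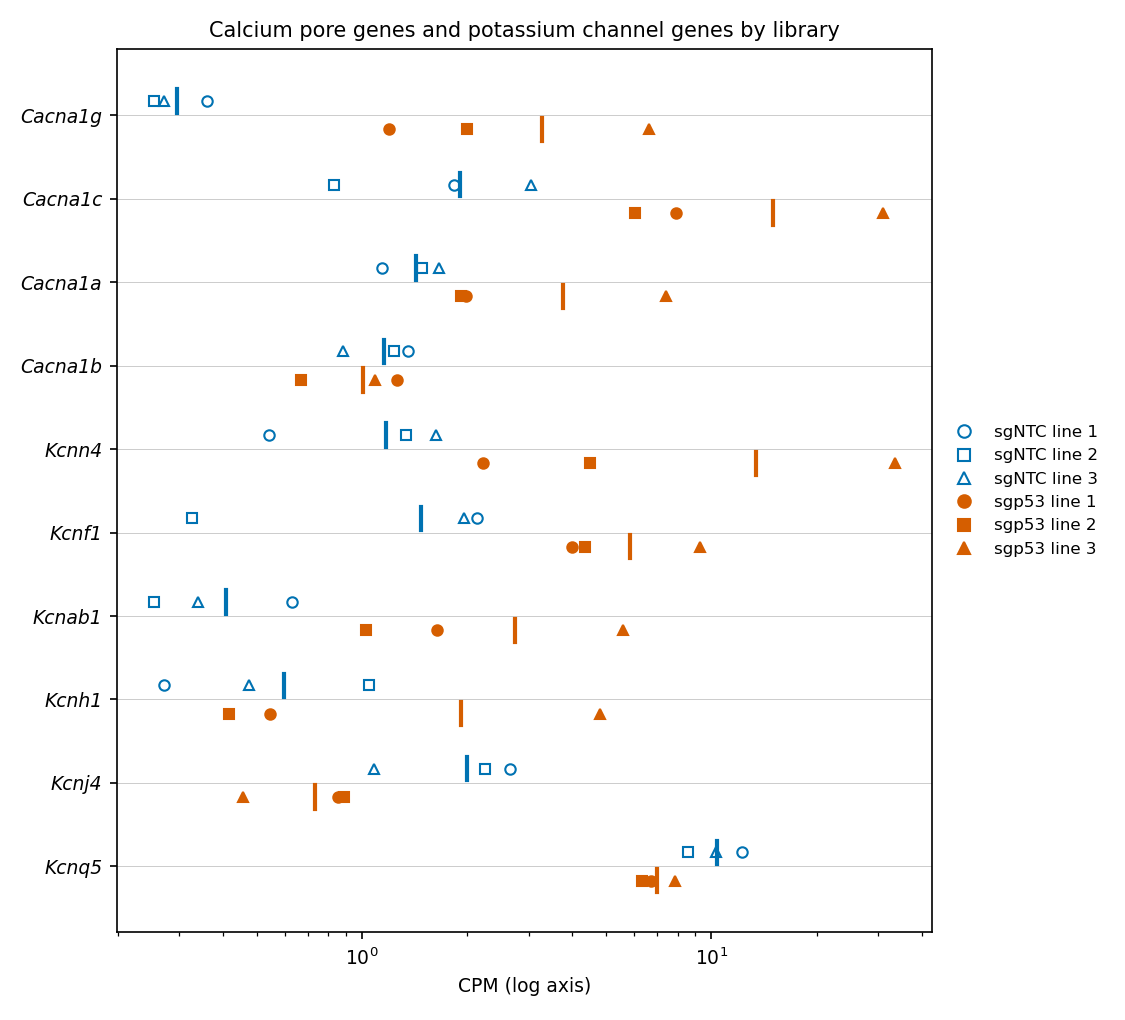
CPM of the 4 tested calcium pore genes and of 6 potassium channel genes on a log axis; points are libraries (open sgNTC, filled sgp53, shape by line) and vertical bars are group means. The filled triangle, sgp53 line 3, is the rightmost point of Cacna1g, Cacna1c, Cacna1a, Kcnn4, Kcnf1, Kcnab1 and Kcnh1; it is the leftmost of Kcnj4.

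TRP channel genes had 0 calls among 6 tested in edgeR with and without the block, in DESeq2 and in limma-voom. Of all tested genes, edgeR called 6.45% (2.38% with the block), DESeq2 18.1% and limma-voom 5.35%. At an unadjusted edgeR p under 0.05 there were 2 of the 6, against 29.0% of all tested genes. In 1 of the 6 every sgp53 library was below every sgNTC library (19.0% of all tested genes). The difference in Trpm7 was -0.12 on the log2 scale (SE 0.07, adjusted p = 0.276 in edgeR), with groups that overlap. Trpc1, a widely made subunit of receptor-operated channels, had 10.8, 12.03 and 11.6 CPM in sgNTC and 9.56, 10.03 and 7.96 CPM in sgp53, without overlap (-0.32, SE 0.13, adjusted p = 0.17). Trpv2, a channel of intracellular membranes and the cell surface, had 9.22, 3.77 and 6.57 CPM and 3.04, 4.08 and 3.33 CPM (-0.90, SE 0.34, adjusted p = 0.139). Trpm4, a calcium-activated channel for monovalent cations, had 9.42 ± 1.21 and 8.10 ± 1.24 CPM. Trpv4, an osmosensitive channel, had 1.20, 1.01 and 2.54 CPM in sgNTC and 1.71, 2.61 and 2.77 CPM in sgp53 (0.58, SE 0.41). The row Trpc2 had 13.5 ± 1.28 and 13.1 ± 1.20 CPM. Of its exonic bases 95.4% are shared with the readthrough gene Xntrpc on the same strand, so its counts cannot be assigned to Trpc2 itself, a channel of the vomeronasal organ.

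Differences between the lines, with the guide in the model, gave no call in edgeR. It called 0 of 47 channel rows for the line, and 0 of all 13044 genes, with 2 residual degrees of freedom. At an unadjusted p under 0.05 there were 5 channel rows (10.6%, against 3.53% of all genes). DESeq2 called Cacna1c and Kcnn4, 2 of 67 genes called in all (0.514%). The 4 rows that ranked first were Cacna1c, Cacng7, Kcnn4 and the mechanosensitive background potassium channel Kcnk2, each at an edgeR adjusted p of 0.968. Kcnk2 was at 0.661, 0.254 and 0.914 CPM in sgNTC lines 1, 2 and 3 and at 0.580, 0.417 and 1.40 CPM in sgp53, lowest in line 2 and highest in line 3 with either guide. Within line 1, 4 of the 47 rows were over 2-fold higher and 8 over 2-fold lower in sgp53; within line 2 and within line 3, 11 were higher and 7 lower. Over all tested genes 3.03% were higher and 4.45% lower within line 1, 7.47% and 4.03% within line 2, and 6.501% and 5.28% within line 3.

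The rows that match the pattern by name only were both tested. Trpc4ap, an adaptor protein of a ubiquitin ligase complex, had the highest level per kilobase of all rows, 62.7 CPM per kilobase. It was at 195 ± 2.70 CPM in sgNTC and 206 ± 4.51 in sgp53 (log2 fold change 0.08, edgeR adjusted p = 0.299). Kcnq1ot1, the imprinted noncoding RNA made antisense to Kcnq1, was at 7.20 ± 0.711 and 5.81 ± 0.411 CPM (-0.31, edgeR adjusted p = 0.214). Its mean over 93.1 kb of exon was 0.0699 CPM per kilobase. It shares 121 exonic bases with Kcnq1, which had a mean of 0.315 CPM. Without a stated strand setting the reads of the overlap cannot be told apart.

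Ion transport genes outside the name pattern showed few calls in edgeR. Genes named for a DESeq2 call were chosen after their values were seen. Of all tested genes, 29.0% had an unadjusted edgeR p under 0.05, and edgeR called 3.69% lower. DESeq2 called 8.98% of them lower and 9.16% higher. The groups did not overlap in 19.0% with sgp53 lower and in 17.8% with sgp53 higher. The counts below are to be read beside these shares. Of 22 tested genes for calcium stores and pumps, 0 were called by edgeR with or without the block, or by limma-voom, and 5 had an unadjusted p under 0.05; their median change was -0.02 on the log2 scale. DESeq2 called 5 lower, all without overlap of the groups: the store-operated calcium entry genes Stim1 (75.0 and 55.4 CPM), Orai1 and Orai2, the store release channel Itpr1 and the pump Atp2a3. Of highest CPM, not scaled by length, were the SERCA pump Atp2a2 (701 and 683 CPM in sgNTC and sgp53) and the plasma membrane pump Atp2b1 (215 and 191 CPM). Of 12 tested sodium and potassium pump and cotransporter genes, 2 fell, among them the potassium chloride cotransporter Slc12a4 (240 to 177 CPM, edgeR adjusted p = 0.0374, and 0.0734 with the line as a block). With the block 0 of the 12 were called. Of 15 other cation channel genes tested, 0 were called by edgeR with or without the block, or by limma-voom, and 3 had an unadjusted p under 0.05. DESeq2 called 2 lower, the pacemaker channel Hcn2 (3.31 and 1.44 CPM) and the irritant-gated TRP channel Trpa1 (2.20 and 0.459 CPM), both without overlap. Of highest CPM were the stretch-activated Piezo1 (383 and 368 CPM) and the polycystin Pkd1 (169 and 164 CPM). Of 10 tested channel partners and regulators, 0 were called by edgeR with or without the block, or by limma-voom, and 3 had an unadjusted p under 0.05. DESeq2 called 2 higher, the small GTPases Rrad (1.45 and 3.51 CPM) and Gem (1.94 and 4.27 CPM), which inhibit calcium channels, both without overlap. The list was led in CPM by the kinase Sgk1 (273 and 232 CPM) and the ubiquitin ligase Nedd4l (73.3 and 52.7 CPM).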

How the data were processed

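RNA sequencing gave 6 libraries, 3 per group. The deposited table holds raw read counts per gene symbol, 1 column per library; per the submitters' processing notes CASAVA 1.8, STAR, DESeq2 and mm10 were used, with no role given. Which read counter, annotation and strand option were applied is not given in the sources used here. Date-like names stand in 27 rows, none of them a channel gene.

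Counts were normalised by TMM, filtered by filterByExpr and tested by edgeR 4.0.16's quasi-likelihood method (R 4.3.3) on 13044 genes, without a block (4 residual degrees of freedom). Alternatives were RLE normalisation, other filters, DESeq2 1.42.0, limma-voom (limma 3.58.1), the line as a replicate block (2 residual degrees of freedom) and leaving out libraries or lines. The line term was tested in the blocked edgeR model. An exact permutation test of 3 against 3 cannot go below 0.1. The tests were checked on simulated data. CPM use the TMM-scaled total of all rows; within-line differences are of log2 CPM with a prior count of 2. Without the block the p-values for the guide measure the spread between lines within a group. With the block they measure the spread of the guide difference across lines. The labels do not call the lines separate embryos. Libraries of a group differed beyond sampling noise (chi-square per degree of freedom 21.8 to 58.0). Pairing comes from the labels, in which a line contributes 1 library per guide. Deviations from group means correlated at 0.0893, 0.0018 and -0.0272 in lines 1, 2 and 3. Between libraries of different lines the correlations ran from -0.100 to 0.128, a range that holds the values within lines.

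Positions, exon lengths and overlaps are of GENCODE M21 (GRCm38, which mm10 denotes); all 157 rows matched, 1 by a synonym. Promoters are RefSeq's on GRCm38.p6; 120 channel genes had one. Named are rows called with or without the block; those of highest CPM (6 potassium, 3 sodium, 4 calcium, 4 TRP); the 6 of smallest p not called, with at least 1 CPM and groups apart; the 4 of smallest line p; and rows of no channel subunit. Some genes that the rule names are not reported here. The rows, lists and this rule were chosen with earlier results of these data known. From 7 marker lists, those of blood and endothelium were near 0 but for Cd68, which fell from 9.22 to 3.68 CPM, and Kdr (1.87 and 1.42 CPM); striated muscle summed to at most 3.31 CPM and neuron to at most 81.7 CPM.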

Additional observations from a re-analysis of the deposited data

How the results depend on the processing

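The count of channel genes called higher, 1, was 1 under RLE normalisation, both other filters and the replicate block, 5 with DESeq2 and 0 with limma-voom. Over the fits that leave out a library or a line it ranged from 0 to 1. The count called lower, 3, was 2 to 4 under the other tools, filters and the block, and 0 to 2 with a library or line left out; with a whole line left out it was 0. The block changed the calls of Scn3b, Cacna1g and Cacna1c, as given above, and no other call of a named channel gene; outside the members it ended those of Cobll1, Slc12a4, Map2 and Krt18. The count that differs between lines, 0, was 2 with DESeq2. The number at a mean of at least 1 CPM, 38, was 22 when 1 CPM was asked of every library and 45 when asked of any. With a library or line left out, log2 fold changes crossed 0 in Cacna2d1 (-0.150 to 0.0653), Cacnb3 (-0.0620 to 0.214), Kcnk5 (-0.227 to 0.0589), Trpc2 (-0.142 to 0.106) and Kcnk2 (-0.300 to 0.776). The causes were not tested. The named genes kept their side of the threshold and sign in 358 of 403 alternatives; 29 lost a call and 6 gained one. Scn3b and Kcnk2 had no value under the filter at a mean of 1 CPM. Low counts kept 79 rows out of the main fit. The fit without the low-count filter tested every row with a count, and its calls of channel genes stayed at 1 higher and 3 lower.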
